A study of Mus musculus with 8 samples.

Results

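The genes described here are 8 enzymes of cholesterol synthesis: Hmgcs1, Idi1, Fdps, Fdft1, Sqle, Lss, Cyp51 and Dhcr7. They were taken by name, with earlier results of these data known, so counts set beside those of all tested genes are descriptions. Every probe set that the platform annotation assigns to one of them alone was included, which gave 21 of the 45101 probe sets on the array. After a filter on dim probe sets, 17 of the 21 were left, and all 8 genes were among the 13119 tested of 18194 genes with a probe set of their own.

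RNA was measured on 8 Affymetrix mouse arrays. All mice were C57BL/6, ate the AIN-76 diet, carried the Min mutation of Apc, which leads to intestinal tumours, and had loxP sites in both copies of Spint1. Spint1 encodes HAI-1, an inhibitor of membrane-bound serine proteases. The 4 groups, with 2 arrays each, were small-intestinal mucosa outside tumours from mice without Cre (control mucosa), tumours from such mice (control tumours), and both tissues from mice that also carried a Cre transgene (deficient mucosa and deficient tumours). The villin promoter drives this Cre, so that Spint1 is deleted in the intestinal epithelium and kept in the other cells of the tissue. The sources used here do not state the age of the mice, how many mice stand behind each array, or whether tumour and mucosa came from the same animals. All p-values therefore measure only the spread between these samples.

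Cholesterol is built from acetyl-CoA by way of mevalonate and isoprenoid units. Hmgcs1 makes HMG-CoA, the substrate of the rate-limiting reductase. Idi1 and Fdps turn isopentenyl diphosphate into farnesyl diphosphate, which also feeds protein prenylation, ubiquinone and dolichol. Fdft1 joins farnesyl units to squalene and so commits them to sterols, Sqle oxidises squalene, Lss closes the ring system to lanosterol, Cyp51 removes a methyl group from lanosterol, and Dhcr7 carries out a last reduction to cholesterol. The transcription factor SREBP-2 turns on the genes of the pathway when the endoplasmic reticulum is short of sterol. It binds sterol regulatory elements together with the factors NF-Y and Sp1. The small intestine takes up dietary and biliary cholesterol and also synthesises its own.

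Promoter sequence was at hand for 5 of the 8 genes in the RefSeq table of mouse assembly GRCm38.p6, and those of 4 with a single listed start are shown because these genes are textbook targets of SREBP-2 whose levels are described below. Each line gives the 250 bases before the transcription start, 5′ to 3′ on the strand of the gene. Capitals mark matches on either strand to CCAAT, the core bound by NF-Y, to GGGCGG, the core bound by Sp1, and to TCACNCCAC, a form of the sterol regulatory element. The windows are Hmgcs1 at chr13:119690101-119690350 (plus strand), Idi1 at chr13:8885356-8885605 (plus), Lss at chr10:76531355-76531604 (plus) and Cyp51 at chr5:4104698-4104947 (minus).
Hmgcs1: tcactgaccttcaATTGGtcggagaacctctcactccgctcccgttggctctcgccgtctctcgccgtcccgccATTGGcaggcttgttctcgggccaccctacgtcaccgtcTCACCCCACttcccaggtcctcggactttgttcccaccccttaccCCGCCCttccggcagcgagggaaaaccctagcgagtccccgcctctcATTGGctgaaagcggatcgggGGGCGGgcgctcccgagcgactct
Idi1: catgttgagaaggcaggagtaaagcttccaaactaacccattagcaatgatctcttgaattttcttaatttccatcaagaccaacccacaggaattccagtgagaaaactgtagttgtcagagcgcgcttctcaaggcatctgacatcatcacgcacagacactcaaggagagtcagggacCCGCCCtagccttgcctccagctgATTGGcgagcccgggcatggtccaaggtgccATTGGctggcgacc
Lss: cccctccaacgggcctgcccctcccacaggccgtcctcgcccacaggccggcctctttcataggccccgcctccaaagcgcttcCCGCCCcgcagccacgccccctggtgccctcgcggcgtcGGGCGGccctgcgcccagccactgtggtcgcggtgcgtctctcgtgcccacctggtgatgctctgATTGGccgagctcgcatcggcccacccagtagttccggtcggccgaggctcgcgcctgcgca
Cyp51: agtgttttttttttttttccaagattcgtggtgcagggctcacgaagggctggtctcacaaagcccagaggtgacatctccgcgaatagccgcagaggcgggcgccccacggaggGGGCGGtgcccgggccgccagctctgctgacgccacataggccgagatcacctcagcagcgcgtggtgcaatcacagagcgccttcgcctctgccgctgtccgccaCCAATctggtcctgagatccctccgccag

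The CCAAT motif was present in 5 of the 5 genes, against 33.8% of the 32851 windows of this length in the table. GGGCGG was also present in 5 of 5, against 32.7% of windows. These counts are per gene and take any of its listed starts, whereas the shares are per window. Dhcr7 has 3 listed starts. The first and second of them had 0 CCAAT matches, and the second had 0 GGGCGG matches. Hmgcs1 had 3 CCAAT matches, all read as ATTGG on its own strand and beginning 237, 176 and 45 bases before the start, and Idi1 had 2, beginning 45 and 14 bases before it. Lss had 1, beginning 62 bases before the start, and Cyp51 had 1, beginning 29 bases before it. The sterol element letters were found in Hmgcs1 alone, 137 to 129 bases before the start, and in 1.05% of all windows. A match is a description of the letters in the window. Binding was not measured here.

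Spint1 itself had a log2 signal of 12.87 and 13.00 in control mucosa, 12.46 and 12.25 in deficient mucosa, 12.75 and 13.06 in control tumours, and 11.76 and 11.84 in deficient tumours. Every deficient array lay below every control array, although Spint1 did not pass the test in mucosa (−0.58 ± 0.24 log2, SE, n = 2 per group, limma adjusted p = 0.271) or in tumours (−1.10 ± 0.24, adjusted p = 0.779). Gapdh gave a ratio of 3′ to 5′ signal, a sign of RNA quality, of 25.9 on the second control tumour array and of 0.803 to 1.77 elsewhere. The same ratio for Actb, a second control gene, was 2.32 on that array and 1.15 to 1.52 elsewhere, a much smaller rise. Spiked-in poly-A controls averaged 7.90 to 8.35 log2 on 3 arrays, the second ones of control mucosa, deficient mucosa and deficient tumours, and from 6.22 up to 7.02 on the remaining 5. Pearson's r between the arrays of a group was 0.947 to 0.968 across the tested genes, which are not independent replicates. The mean log2 signal of 7 epithelial markers was 13.88 to 14.08 on all 8 arrays, though the markers moved apart within it. In tumours of control mice Krt18 rose by 1.81 ± 0.22 log2 (SE, n = 2 per group, limma adjusted p = 0.00231), while Cdx2 was at −0.78 ± 0.28 (0.0745) and Vil1 at −0.52 ± 0.23 (0.138). The part of the epithelial share in the results below was not tested. In tissue samples like these, fewer cells of a type and less RNA per cell cannot be told apart.

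Averaged over the 8 enzymes, log2 signal was lowest on the control mucosa arrays, at 9.96 and 10.73. It was 11.39 and 11.24 in deficient mucosa, 11.61 and 11.49 in control tumours and 11.72 and 11.66 in deficient tumours. The arrays of control mucosa also differed most from each other, by 0.764 log2, against 0.0606 to 0.152 in the other groups. All 8 enzymes were higher on the second control mucosa array than on the first, where 44.3% of all tested genes were. For 5 enzymes, Hmgcs1, Fdft1, Sqle, Lss and Cyp51, both control mucosa arrays lay below all 6 other arrays, a pattern that 22.9% of the tested genes had. This pattern was picked after the values were seen and is given as a description.

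**Figure D1:**
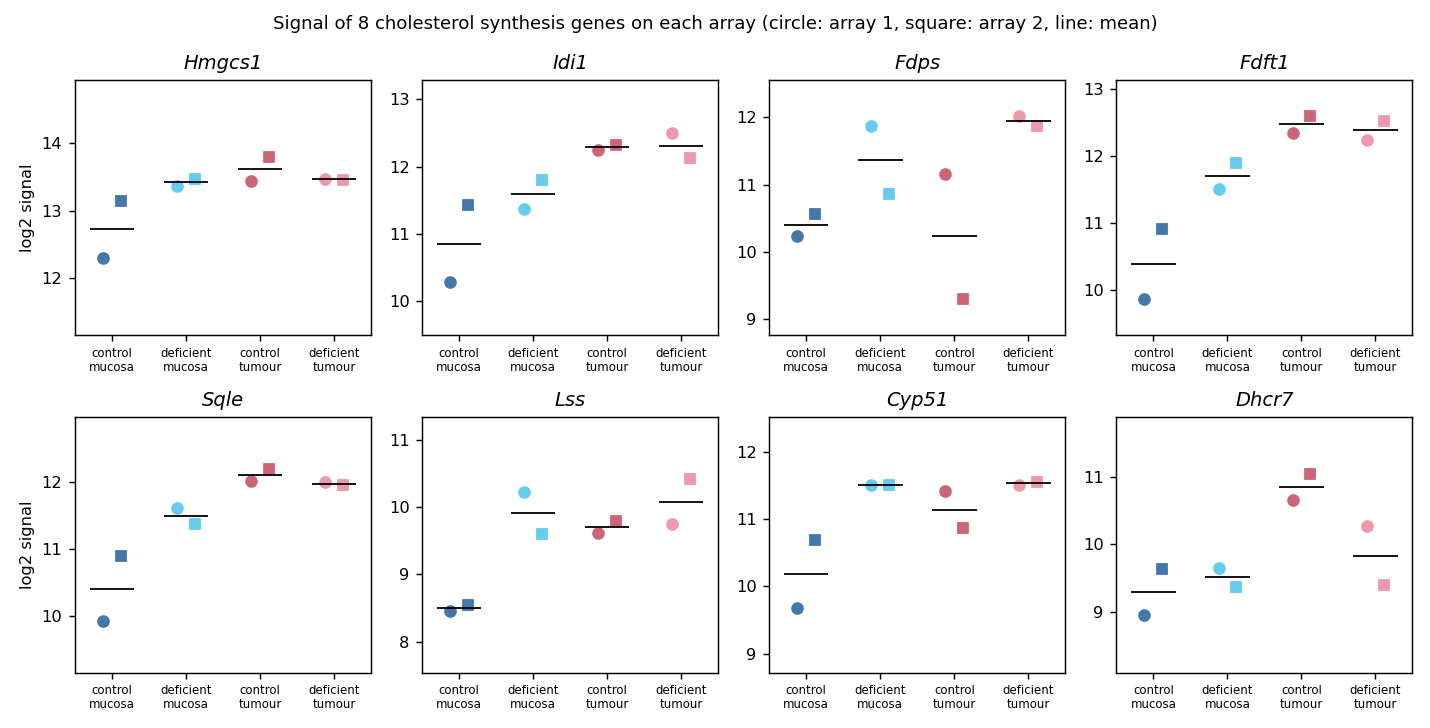
Log2 signal (vertical axis) of the probe set used for each of the 8 enzymes on each of the 8 arrays, by group (horizontal axis). Circles are the first and squares the second array of a group, and lines are group means. The panels of Hmgcs1, Fdft1, Sqle, Lss and Cyp51 have both control mucosa arrays lowest, Fdps has its lowest point on the second control tumour array (9.30), and Dhcr7 stands highest in control tumours (10.65 and 11.04).

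At the entry of the pathway, Hmgcs1 had log2 signals of 12.30 and 13.14 in control mucosa, 13.37 and 13.47 in deficient mucosa, 13.44 and 13.79 in control tumours, and 13.47 and 13.45 in deficient tumours. Its first control mucosa array stood apart as the lowest. The other 7 arrays spanned less than the gap between the control mucosa arrays. Idi1, which isomerises isopentenyl diphosphate, had 10.28 and 11.42 in control mucosa, 11.37 and 11.81 in deficient mucosa, 12.25 and 12.33 in control tumours, and 12.50 and 12.12 in deficient tumours. All 4 tumour arrays lay above all 4 mucosa arrays, and the mucosa groups overlapped. Fdps, which makes farnesyl diphosphate, had 10.24 and 10.57 in control mucosa, 11.87 and 10.85 in deficient mucosa, 11.16 and 9.30 in control tumours, and 12.02 and 11.87 in deficient tumours. It was the only one of the 8 whose control tumour arrays lay on either side of control mucosa, and the low one is the array with the raised Gapdh ratio.

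Fdft1, the squalene synthase, had log2 signals of 9.86 and 10.91 in control mucosa, 11.51 and 11.89 in deficient mucosa, 12.33 and 12.60 in control tumours, and 12.24 and 12.52 in deficient tumours. The order was control mucosa, deficient mucosa and then tumours, with overlap between the tumour groups only. Sqle, the squalene epoxidase, had 9.93 and 10.89 in control mucosa, 11.61 and 11.37 in deficient mucosa, 12.01 and 12.20 in control tumours, and 11.99 and 11.95 in deficient tumours. No groups overlapped for Sqle, with deficient tumours just under control tumours. Among the 8, Sqle came closest to the mean centred profile of the enzymes, with a root mean square difference of 0.203 log2 over the 8 arrays.

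Lss, the lanosterol synthase, had log2 signals of 8.46 and 8.55 in control mucosa, 10.22 and 9.61 in deficient mucosa, 9.61 and 9.79 in control tumours, and 9.75 and 10.42 in deficient tumours. Its control mucosa arrays were within 0.0891 of each other, and the other 3 groups overlapped. Cyp51 had 9.68 and 10.70 in control mucosa, 11.50 and 11.51 in deficient mucosa, 11.42 and 10.87 in control tumours, and 11.51 and 11.55 in deficient tumours. Deficient mucosa and deficient tumours were nearly equal for Cyp51, and control tumours lay below both. Dhcr7, at the end of the pathway, had 8.94 and 9.63 in control mucosa, 9.65 and 9.37 in deficient mucosa, 10.65 and 11.04 in control tumours, and 10.28 and 9.39 in deficient tumours. Control tumours were above all other arrays for Dhcr7, and the remaining 3 groups overlapped.

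In control mice, 5 of the 8 enzymes were called higher in tumours than in mucosa outside them and 0 lower. Of all tested genes 21.2% were called higher here, 7.64% lower and 28.8% in either direction, by limma at an adjusted p under 0.05. An unadjusted p under 0.05 was reached by 7 of the 8 enzymes and 41.5% of all tested genes. The median difference was 1.32 log2 over the 8 enzymes and 0.24 over all tested genes. The rise was 2.08 ± 0.37 log2 for Fdft1 (SE, n = 2 per group, 4.23-fold, limma adjusted p = 0.00734) and 1.69 ± 0.34 for Sqle (3.23-fold, adjusted p = 0.0106). Fdft1 makes squalene and Sqle oxidises it. Dhcr7 rose by 1.56 ± 0.38 (2.96-fold, limma adjusted p = 0.0212), Idi1 by 1.44 ± 0.40 (2.71-fold, 0.0319) and Lss by 1.19 ± 0.32 (2.29-fold, 0.0304). The 3 enzymes that were not called were Cyp51 at 0.95 ± 0.37 (limma adjusted p = 0.0913), Hmgcs1 at 0.89 ± 0.32 (0.0745) and Fdps at −0.17 ± 0.60 (0.856). Tumour arrays lay above mucosa arrays without overlap for 7 of the 8, all but Fdps, and for 45.3% of all tested genes. With the mean of all probe sets of a gene 3 of the 8 were called, as were 2834 of 12114 genes in either direction. Fdft1 was at −0.26 (limma adjusted p = 0.532) in that setting. With no filter on dim probe sets 2 were called, as were 2464 of 18194 genes in either direction. Idi1, Lss and Dhcr7 lost their call there. Lss also lost its call with quantile scaling (limma adjusted p = 0.0675) and with a spike-in term (0.0563), and Idi1 in a fit of only the groups compared (0.0591). Calls were gained by Hmgcs1 with quantile scaling (limma adjusted p = 0.0415) and a mean-variance trend (0.0330). Cyp51 gained one with the mean of all probe sets (0.0272). Leaving out single arrays changed the calls of the 8, mostly by losing them, and the number called over all tested genes fell too. The median over the 8 was 1.01 log2 without the first control mucosa array and 1.68 without the second. It was 1.38 without the first control tumour array and 1.30 without the second. The median over all tested genes was 0.29, 0.21, 0.26 and 0.25 in the same order.

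Without the second control tumour array, the one with the raised Gapdh ratio, the difference of Fdps was 0.76 ± 0.47 log2 (limma adjusted p = 0.307), and without the first it was −1.11. The sign for Fdps thus turned on which control tumour array was used. Within the arrays of low spike-in signal, 2 control tumour arrays against 1 of control mucosa, the median over the 8 enzymes was 1.68 log2, and 7 of 8 were above 0. That control mucosa array is the first, on which all 8 enzymes were lower than on the second. With the second in its place the median was 1.01 log2. The arrays of high spike-in signal include no control tumour.

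In HAI-1 deficient mice, the same comparison of tumours with mucosa called 0 of the 8 enzymes, and 0 had an unadjusted p under 0.05 by limma. Of all tested genes 4.20% were called and 25.1% had an unadjusted p under 0.05. The largest differences were 0.72 ± 0.40 log2 for Idi1 (SE, n = 2 per group, limma adjusted p = 0.297) and 0.68 ± 0.37 for Fdft1 (0.301), followed by Fdps at 0.58 ± 0.60 (0.585) and Sqle at 0.48 ± 0.34 (0.413). Dhcr7 had 0.32 ± 0.38, Lss 0.17 ± 0.32, Hmgcs1 0.04 ± 0.32 and Cyp51 0.03 ± 0.37. All 8 differences were above 0, with a median of 0.40 log2 against 0.18 for all tested genes. The arrays did not overlap, with tumours higher, for 4 of the 8 enzymes, and for 36.6% of all tested genes.

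In the comparison of HAI-1 deficient with control mucosa outside tumours, none of the 8 enzymes passed the test. By limma 4 of the 8 had an unadjusted p under 0.05, against 17.5% of all tested genes, while 1.05% of all tested genes were called. The differences were above 0 for all 8 enzymes, with a median of 1.02 log2 against 0.11 for all tested genes. Lss differed by 1.41 ± 0.32 log2 (SE, n = 2 per group, 2.66-fold, limma adjusted p = 0.0848), Cyp51 by 1.32 ± 0.37 (0.126), Fdft1 by 1.31 ± 0.37 (0.130) and Sqle by 1.08 ± 0.34 (0.162). Of the enzymes before squalene, Fdps was at 0.96 ± 0.60 (limma adjusted p = 0.464), Idi1 at 0.73 ± 0.40 (0.402) and Hmgcs1 at 0.70 ± 0.32 (0.318). Dhcr7 was at 0.22 ± 0.38 (0.833). Deficient arrays lay above control arrays without overlap for 6 of the 8, all but Idi1 and Dhcr7, and for 30.9% of all tested genes. Lss was called, at an adjusted p of 0.0489, with a 60th percentile filter on dim probe sets, and at 0.0485 with a mean-variance trend.

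These differences rested unequally on the control mucosa arrays. The median over the 8 was 0.69 log2 without the first of them and 1.38 without the second, and Dhcr7 was −0.12 without the first. Between the arrays of low spike-in signal, 1 of each genotype, the median was 1.64 log2 with all 8 enzymes above 0. Between those of high spike-in signal, also 1 of each, it was 0.43 with 7 of 8 above 0, and Dhcr7 was at −0.26. Lss differed by 1.76 and 1.06 in the low and the high arrays and Sqle by 1.68 and 0.48.

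HAI-1 loss in tumours called none of the 8 enzymes, as it called 0 of the 13119 tested genes by limma (percentage called 0). At an unadjusted p under 0.05 there were 2 of the 8, Fdps and Dhcr7, and 6.11% of all tested genes. The median over the 8 was −0.03 log2, against −0.01 for all tested genes. Fdps was 1.72 ± 0.60 log2 higher in deficient tumours (SE, n = 2 per group, limma adjusted p = 0.779), and Dhcr7 was 1.02 ± 0.38 log2 lower, written as −1.02 in the sense of deficient minus control (2.02-fold lower, adjusted p = 0.779). The value of Fdps was 0.78 ± 0.47 without the second control tumour array and 2.65 without the first (limma adjusted p = 0.132 for the latter). The other 6 enzymes lay between −0.15 for Hmgcs1 and 0.39 for Cyp51. Deficient arrays were above control arrays without overlap for Fdps and Cyp51, as for 18.6% of all tested genes, and below for Sqle and Dhcr7, as for 19.4%.

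The interaction subtracts the difference that HAI-1 loss made in mucosa from the one it made in tumours. It was not called for any of the 8 enzymes or of the 13119 tested genes (percentage called 0). By limma 2 of the 8 had an unadjusted p under 0.05, against 9.23% of all tested genes. They were Fdft1 at −1.40 ± 0.53 log2 (SE, n = 2 per group, limma adjusted p = 0.496) and Sqle at −1.21 ± 0.48 (0.506). The value was below 0 for 7 of the 8, all but Fdps at 0.76 ± 0.84 (limma adjusted p = 0.828), with a median of −0.98 log2 against −0.12 for all tested genes. The same control mucosa arrays enter the tumour comparison in control mice, the comparison of HAI-1 loss in mucosa and the interaction. A low value there raises the first pair of differences and lowers the interaction together, so these 3 comparisons are not independent of each other.

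**Figure D2:**
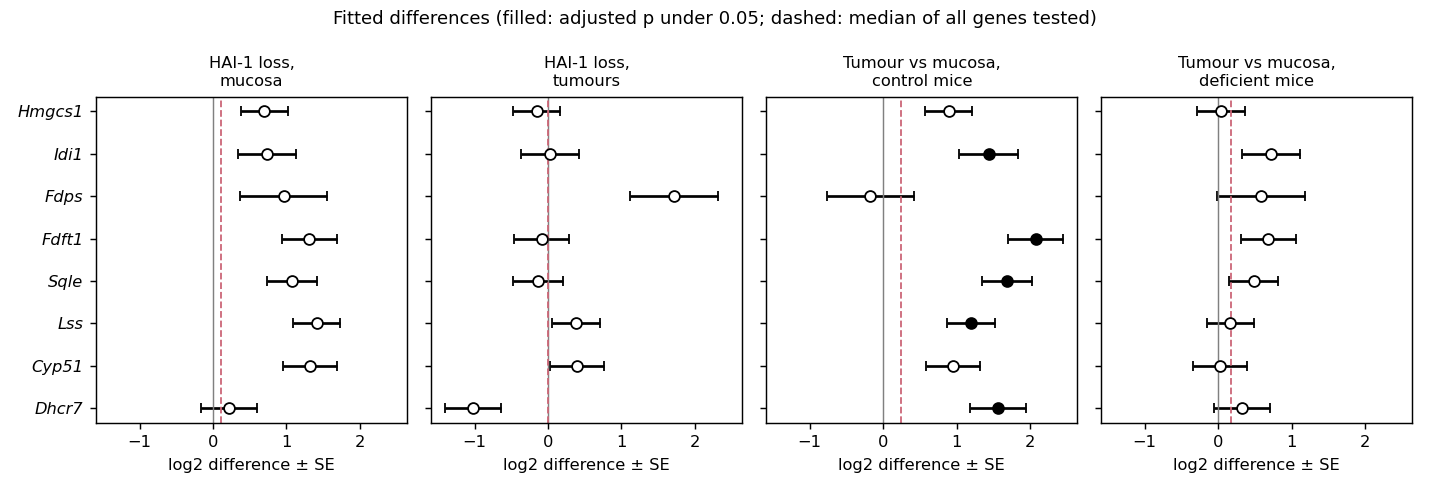
Fitted log2 differences (horizontal axis, bars are 1 SE, n = 2 arrays per group) of the 8 enzymes in pathway order in 4 comparisons. Filled points passed limma at an adjusted p under 0.05, and the dashed line is the median of all tested genes. Filled points are seen for Idi1, Fdft1, Sqle, Lss and Dhcr7 in the comparison of tumours with mucosa in control mice and nowhere else, while in mucosa after HAI-1 loss all points lie above 0 and are open.

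Several probe sets were present for 6 of the genes, and 17 probe sets could be tested one by one among 23065. In control mice 10 of the 17 were called higher in tumours and 0 lower, against 15.0% of all probe sets called higher and 7.62% lower. These included Cyp51 1422533_at at 1.98 ± 0.39 log2 (SE, n = 2 per group, limma adjusted p = 0.0140) and 1422534_at at 1.45 ± 0.38 (0.0335), although the brightest Cyp51 probe set, 1450646_at, was not called. For Hmgcs1, 1433443_a_at was called at 1.16 ± 0.31 (limma adjusted p = 0.0345) while 1433446_at had −1.34 ± 0.46 (0.0744). The latter had log2 signals of 10.03 and 10.60 in control mucosa, 11.21 and 10.77 in deficient mucosa, 9.38 and 8.58 in control tumours, and 10.22 and 11.28 in deficient tumours. Control tumours were thus lowest on this probe set and highest by group mean on the brightest one for the same gene. Where each probe set lies along its transcript is not known here.

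After HAI-1 loss in mucosa all 17 probe sets had differences above 0 and 0 were called, as were 0.0737% of all probe sets in the direction of a rise. The 17 come from only 8 genes, and the median difference over all tested genes was also above 0, at 0.11 log2. Lss 1426913_at had the largest, 2.24 ± 0.46 log2 (SE, n = 2 per group, limma adjusted p = 0.104). Its log2 signals were 6.45 and 6.97 in control mucosa, 9.09 and 8.81 in deficient mucosa, 8.34 and 8.26 in control tumours, and 8.34 and 9.73 in deficient tumours, so control mucosa was again lowest. The 4 probe sets below the filter were 1 of Fdps, 2 of Fdft1 and 1 of Lss. Their differences after HAI-1 loss in mucosa were −0.11 and −0.46 log2 for Fdft1, 0.37 for Fdps and 0.74 for Lss. Fdft1 1438918_at among them had 6.25 and 5.94 in control mucosa, 5.87 and 6.10 in deficient mucosa, 2.27 and 2.71 in control tumours, and 5.18 and 4.81 in deficient tumours. This dim probe set was lowest in control tumours, where the probe set used for Fdft1 had its highest group mean.

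**Figure D3:**
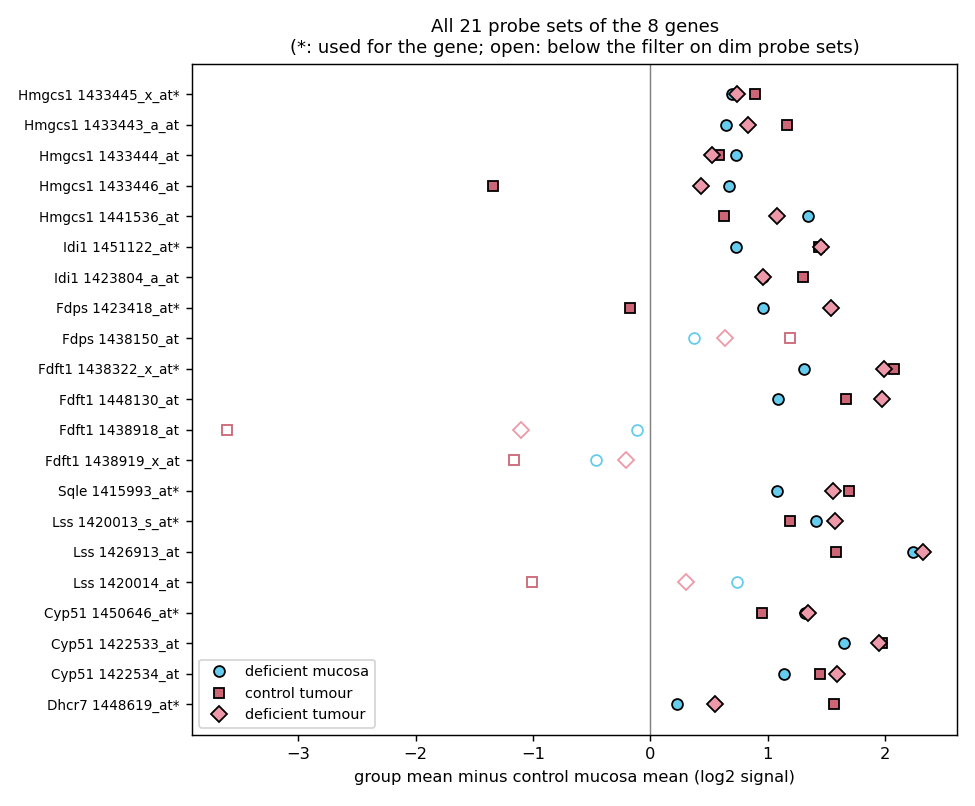
Group mean minus the control mucosa mean (horizontal axis, log2 signal) for all 21 probe sets of the 8 enzymes (vertical axis). Circles are deficient mucosa, squares control tumours and diamonds deficient tumours, an asterisk marks the probe set used for the gene, and open symbols mark the 4 probe sets below the filter. The squares of Hmgcs1 1433446_at, Fdps 1423418_at, 2 dim Fdft1 probe sets and 1 dim Lss probe set lie left of 0, apart from the other squares.

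The other enzymes of the pathway were taken as a list of 12, of which 10 were tested. In control mice 4 of the 10 were called higher in tumours and 2 lower, against 21.2% and 7.64% of all tested genes, with a median of 0.51 log2 against 0.24 for all tested genes. The mevalonate enzymes Mvd (1.81 ± 0.24 log2, SE, n = 2 per group, limma adjusted p = 0.00295) and Mvk (1.06 ± 0.28, 0.0295) rose, as did the sterol reductases Lbr (1.41 ± 0.37, 0.0286) and Tm7sf2 (0.91 ± 0.26, 0.0351). The late enzymes Ebp, an isomerase (−1.18 ± 0.36, limma adjusted p = 0.0463), and Sc5d, a desaturase (−1.13 ± 0.28, 0.0219), fell, whereas Dhcr7, which acts beside them, rose. In mucosa after HAI-1 loss 0 of the 10 were called, against 1.05% of all tested genes, and 5 had an unadjusted p under 0.05 by limma, against 17.5%. The median was 0.74 log2, against 0.11. The smallest p-values there belonged to Mvd (1.34 ± 0.24, limma adjusted p = 0.0539) and Mvk (1.24 ± 0.28, 0.0842).

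Of 7 genes that encode, process or restrain SREBP, 3 were called higher in tumours of control mice and 0 lower. Of all tested genes 21.2% and 7.64% were called in these directions. The median of the list was 1.15 log2, against 0.24. The 3 called were Srebf2, which encodes SREBP-2 (1.49 ± 0.30 log2, SE, n = 2 per group, limma adjusted p = 0.0113), the site-2 protease Mbtps2 (1.24 ± 0.26, 0.0132) and the escort protein Scap (1.15 ± 0.31, 0.0295). In mucosa after HAI-1 loss 0 of 7 were called and 3 had an unadjusted p under 0.05 by limma, against 17.5% of all tested genes. The median was 0.85 log2, against 0.11, with Srebf2 at 1.20 ± 0.30 (limma adjusted p = 0.105) and Mbtps2 at 0.85 ± 0.26 (0.159). Insig1, which holds SREBP back when sterol is plentiful, had the smallest p of these genes in the interaction, at −1.40 ± 0.60 (limma adjusted p = 0.539), followed by Srebf2 at −0.84 ± 0.43 (0.614).

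Of 10 genes of fatty acid synthesis and desaturation, 6 were called higher in tumours of control mice and 0 lower, against 21.2% and 7.64% of all tested genes, with a median of 1.69 log2 against 0.24. They were the malic enzyme Me1 (2.71 ± 0.58 log2, SE, n = 2 per group, limma adjusted p = 0.0135), the desaturases Scd1 (2.59 ± 0.72, 0.0331), Scd2 (1.98 ± 0.34, 0.00648) and Fads1 (1.97 ± 0.29, 0.00405), the fatty acid synthase Fasn (2.17 ± 0.38, 0.00655) and the citrate lyase Acly (1.41 ± 0.28, 0.0104). In mucosa after HAI-1 loss Scd2 rose, by 2.26 ± 0.34 (limma adjusted p = 0.0397), and was the only gene called in any of the 6 pathway lists there. With no filter on dim probe sets 0 of all tested genes were called in this comparison, so Scd2 lost its call. It was also lost when either deficient mucosa array was left out. The median over the 10 was 0.75 log2, against 0.11 for all tested genes, of which 0.899% were called higher.

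Genes of sterol uptake, storage and export did not share one direction. Of 15 listed, 12 were tested, and in control mice 3 were called higher in tumours and 4 lower, against 21.2% and 7.64% of all tested genes. The median was −0.52 log2, against 0.24. The lipoprotein receptor Scarb1 (2.65 ± 0.39 log2, SE, n = 2 per group, limma adjusted p = 0.00412), the lysosomal lipase Lipa (1.31 ± 0.39, 0.0400) and the lysosomal sterol carrier Npc2 (0.96 ± 0.25, 0.0261) rose. The dietary sterol transporter Npc1l1 (−1.96 ± 0.29, limma adjusted p = 0.00422), the sterol exporters Abcg5 (−2.02 ± 0.34, 0.00594) and Abcg8 (−1.41 ± 0.36, 0.0252), and the oxysterol receptor Nr1h3 (−2.24 ± 0.38, 0.00604) fell. In HAI-1 deficient mice, Abcg5 (−2.18 ± 0.34, limma adjusted p = 0.0297), Abcg8 (−1.81 ± 0.36, 0.0428) and Npc1l1 (−1.55 ± 0.29, 0.0386) also fell in tumours. They were the only genes of the pathway lists called in that comparison, where 4.20% of all tested genes were called in either direction. With no filter on dim probe sets, or in a fit of only the groups compared, 0 of all tested genes were called there. These 3 calls did not hold under those settings. After HAI-1 loss in mucosa the median of this list was −0.04 log2, against 0.11 for all tested genes, and 0 of 12 were called, with Npc1l1 at −1.28 ± 0.29 (limma adjusted p = 0.0836) and Scarb1 at 1.40 ± 0.39 (0.127).

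Genes for other uses of farnesyl diphosphate had medians near that of all genes, 0.19 log2 in tumours of control mice and 0.10 in mucosa after HAI-1 loss, with 0 of 5 called in both by limma and 0 at an unadjusted p under 0.05. The smallest p-values were those of the prenyltransferase subunits Fnta (0.63 ± 0.28 log2, SE, n = 2 per group, limma adjusted p = 0.128) and Fntb (0.67 ± 0.42, 0.264) in tumours. In mucosa they were those of Pdss2, of ubiquinone synthesis (0.56 ± 0.26, limma adjusted p = 0.307), and Fnta (0.31 ± 0.28, 0.637).

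In the comparisons in which a list had no call, the smallest p-values were as follows, all by limma with n = 2 per group. In tumours of HAI-1 deficient mice against their mucosa, Scap had 1.17 ± 0.31 log2 (SE, adjusted p = 0.0762) and Mbtps2 0.57 ± 0.26 (0.227), Acly 0.93 ± 0.28 (0.103) and Me1 1.91 ± 0.58 (0.104). The pathway enzymes Tm7sf2 and Mvd had 0.64 ± 0.26 (0.178) and 0.58 ± 0.24 (0.189), and the isoprenoid genes Pdss2 and Dhdds −0.55 ± 0.26 (0.230) and 0.35 ± 0.30 (0.515). After HAI-1 loss in tumours the adjusted p was 0.779 to 0.795 for each of the following. They were Fads2, a desaturase (2.64 ± 0.77), Acaca, which makes malonyl-CoA (0.62 ± 0.30), Ebp (0.86 ± 0.36), Sc5d (0.51 ± 0.28), Scap (0.55 ± 0.31), Srebf2 (0.36 ± 0.30), Npc1l1 (−0.87 ± 0.29), Lipa (−0.67 ± 0.39), Fntb (−0.87 ± 0.42) and Dhdds (0.42 ± 0.30). In the interaction, Mvd had −1.23 ± 0.34 (adjusted p = 0.346), Mvk −1.10 ± 0.40 (0.493), Scd2 −1.83 ± 0.48 (0.330), Scd1 −3.56 ± 1.02 (0.358), Scarb1 −1.98 ± 0.56 (0.351), Nr1h3 1.30 ± 0.54 (0.519), Fntb −0.97 ± 0.59 (0.672) and Fnta −0.60 ± 0.39 (0.689).

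**Figure D4:**
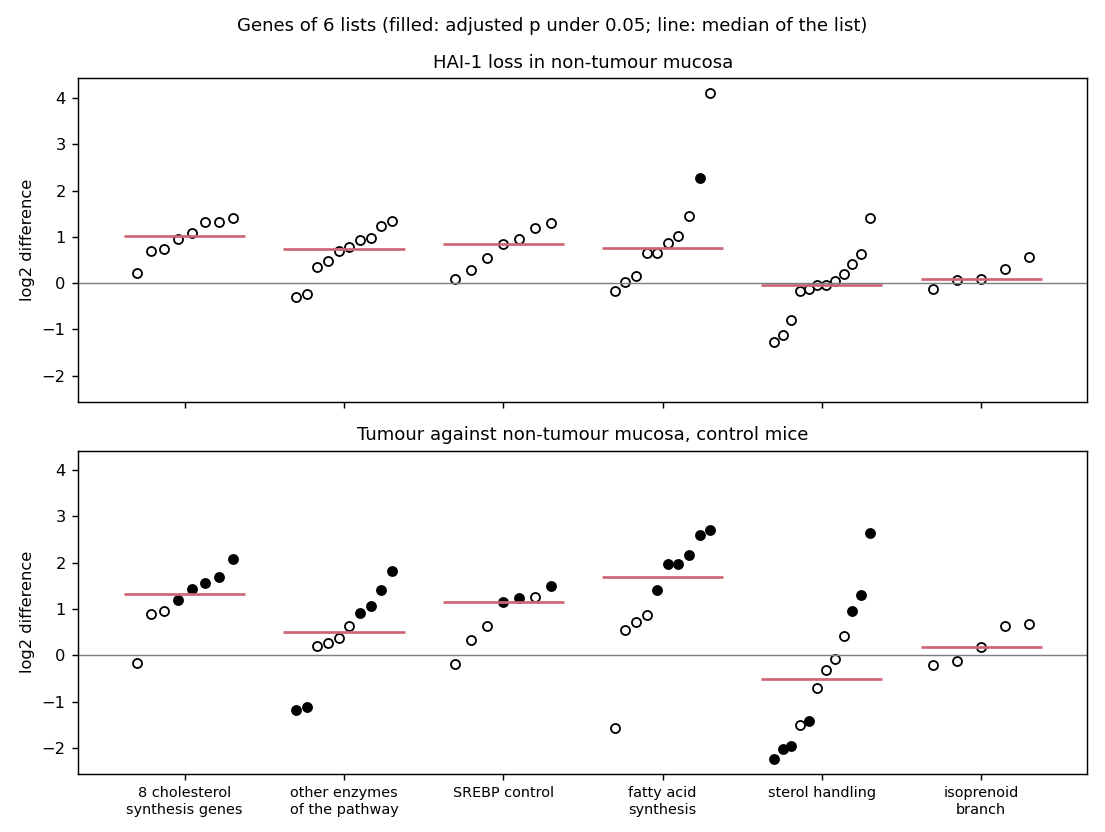
Fitted log2 difference (vertical axis) of every tested gene of 6 lists (horizontal axis), after HAI-1 loss in mucosa (top) and in tumours against mucosa of control mice (bottom). Filled points passed limma at an adjusted p under 0.05, and red lines are list medians. In the bottom panel filled points are above 0 in the 8 enzymes, SREBP control and fatty acid synthesis, and on both sides of 0 in the other enzymes and sterol handling. In the top panel the only filled point is Scd2.

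Markers of other cell types and of dividing cells moved along the same comparisons. The mean log2 signal of 9 genes of cycling cells was 9.13 to 9.72 in control mucosa, 9.74 to 10.17 in deficient mucosa, 10.84 to 11.27 in control tumours and 10.84 to 11.17 in deficient tumours, and 8 of the 9 were called higher in control tumours, against 21.2% of all tested genes. That of 6 fibroblast genes was 7.65 to 8.03, 8.67 to 8.83, 11.38 to 11.57 and 10.88 to 10.99 in the same order, and that of 6 smooth muscle genes 6.01 to 6.26, 6.95 to 7.87, 9.17 to 10.09 and 9.07 to 10.26, with all 6 of both called higher in control tumours. In mucosa after HAI-1 loss none of these 3 lists had a call, against 1.05% of all tested genes. The medians were 0.59 for cycling cells, 1.28 for fibroblasts and 0.97 for smooth muscle, against 0.11 for all tested genes. The fibroblast genes did not move as one, with 5 of 6 above 0 and a range of −1.37 to 2.14 log2. Genes of absorptive enterocytes, 10 in number, had 14.64 to 14.66 in control mucosa, 14.57 to 14.70 in deficient mucosa, 13.73 to 14.02 in control tumours and 13.44 to 13.74 in deficient tumours. In each tumour comparison 3 of the 10 were called lower. Of all tested genes 7.64% were called lower in control mice, and 4.20% were called in either direction in deficient mice. Anpep and Slc5a1 were called in both comparisons, Lct in control mice and Mttp in deficient mice. The 4 T cell genes had 8.76 to 9.10, 7.24 to 8.04, 7.58 to 7.91 and 6.38 to 7.23. Their part in the differences of the 8 enzymes was not tested.

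By the measure of likeness used, the root mean square log2 difference between centred profiles over the 8 arrays, the tested genes outside the 8 closest to the mean profile of the enzymes were Agpat5 (0.118), Gnl2 (0.143), Sergef (0.143), Rtel1 (0.152) and Rap2a (0.155). Agpat5, the closest, had log2 signals of 8.98 and 9.63 in control mucosa, 10.33 and 10.31 in deficient mucosa, 10.51 and 10.76 in control tumours, and 10.83 and 10.63 in deficient tumours. Within the 8, the farthest from their own mean profile were Fdps (0.804) and Dhcr7 (0.550), although each enzyme is part of that mean. For Fdps 70.5% of the tested genes outside the 8 lay closer, and for Dhcr7 34.1%.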

How the data were processed

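The deposited table holds log2 signal per probe set and array, made by the authors. MAS5 and RMA are both named, per the submitters' processing notes, without role or version. Back on the linear scale the trimmed mean of every array was 500.003 to 500.004, and each array had between 313 and 762 probe sets at a log2 value of 0. Values were used as deposited. Low signals carry large errors on this scale, and detection calls were not used here.

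A gene was represented by the brightest probe set annotated to it alone, if its mean reached the 40th percentile of all probe sets (5.20 log2). Group means were estimated in a joint limma model of the 8 arrays (limma 3.58.1, R 4.3.3), which had 4 residual and 3.52 prior degrees of freedom. The scripts were tested on simulated data. Tests were two-sided, with Benjamini-Hochberg adjustment over 13119 genes within each of 5 comparisons, and genes were called at an adjusted p under 0.05. Precision is limited by having only 2 arrays in each group. Figures used python 3.11.15 with matplotlib 3.10.9.

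Named genes were Spint1, the 8 enzymes, every called gene of the other pathway lists or the 2 with the smallest p where none was called, and the 5 genes most like the enzymes. Some genes of the epithelial and enterocyte lists were also named, for their calls or values. Probe sets of the enzymes discussed one by one were chosen after their values were seen. The members and lists were chosen with earlier results of these data known. Alternatives were another scaling, filter, variance prior, probe set rule and offset, fewer groups, a replicate block, a spike-in term, each array left out and probe sets tested singly. Of the lists of cell types, macrophage genes had 2 of 5 called higher in control tumours and goblet genes 2 of 6, against 21.2% of all tested genes. Some genes of the pathway were not analysed here.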

Additional observations from a re-analysis of the deposited data

Results flagged for a closer look

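Sqle was flagged because its arrays separated in opposite directions in the 2 tissues. Of all tested genes 30.9% separated upward in mucosa and 19.4% downward in tumours after HAI-1 loss. The share that did both was not counted. In mucosa both HAI-1 deficient arrays lay above both control arrays (11.61 and 11.37 against 9.93 and 10.89 log2), and in tumours both lay below (11.99 and 11.95 against 12.01 and 12.20). The difference between the tissues was tested with the limma interaction and was −1.21 ± 0.48 log2 (SE, n = 2 per group, limma adjusted p = 0.506), which did not pass. The tumour groups were only −0.13 ± 0.34 log2 apart. The interaction was −0.73 log2 without the first control mucosa array and −1.69 without the second.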

How the results depend on the processing

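The enzymes called higher in tumours of control mice numbered 5, against 2 with no filter and 3 with the mean of probe sets. Over all genes 3777 of 13119 were called in either direction, against 2464 of 18194 and 2834 of 12114 in those settings. Leaving out each array in turn changed the calls of the enzymes and of all genes. The median over the 8 enzymes then ran from 1.01 to 1.68 log2. With the mean-variance trend 6 were called higher in tumours of control mice, and 4147 of 13119 genes were called in either direction. In mucosa after HAI-1 loss 1 was called with the 60th percentile filter and 1 with the mean-variance trend, Lss both times. Over all genes 331 of 10170 and 370 of 13119 were called in these settings. No enzyme was called after HAI-1 loss in tumours, in tumours of deficient mice or in the interaction under any alternative that kept all arrays. After HAI-1 loss in tumours and in the interaction no gene at all was called in those settings, so these absences say nothing particular about the enzymes. In tumours of deficient mice the calls over all genes ran from 0 with no filter to 1050 with the offset. Signs turned for small or discordant values. With the mean of probe sets Fdft1 was −0.26 log2 (limma adjusted p = 0.532) and Fdps 0.51 in tumours of control mice, Hmgcs1 0.34, Idi1 −0.16 and Fdft1 0.92 after HAI-1 loss in tumours, Hmgcs1 −0.10 and Lss −0.0603 in tumours of deficient mice, and Fdps −0.0862 and Fdft1 0.47 in the interaction. That setting averages in the dim probe sets. After HAI-1 loss in tumours Fdft1 was 0.00504 with quantile scaling and Idi1 −0.18 with the spike-in term. For these the cause was not tested.

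Leaving out each array in turn gave ranges that crossed 0. They were −0.12 to 0.57 for Dhcr7 in mucosa after HAI-1 loss, and after HAI-1 loss in tumours −0.33 to 0.0248 for Hmgcs1, −0.17 to 0.21 for Idi1 and −0.23 to 0.0565 for Fdft1. They were −1.11 to 0.76 for Fdps in tumours of control mice, −0.18 to 1.69 for Fdps in the interaction, and in tumours of deficient mice −0.0105 to 0.0932 for Hmgcs1, −0.17 to 0.50 for Lss and −0.12 to 0.77 for Dhcr7.

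With the replicate number as a block, 5 enzymes were called in tumours of control mice and 0 in the other comparisons. Deviations of same-numbered arrays correlated at −0.138 to 0.220 over 6 pairs of groups, with 0.220 between the mucosa groups and under 0.1 in 4 of the 6, so the number was not taken as a pairing. It overlaps with the spike-in split, since all 3 arrays of high spike-in signal are second arrays. The block moved the calls over all genes from 138 to 84 in mucosa after HAI-1 loss, from 3777 to 3618 in tumours of control mice and from 551 to 341 in those of deficient mice. Over all genes and with all arrays kept, the calls in mucosa after HAI-1 loss ranged from 0 with no filter to 370 with the trend. They also depended on which arrays were kept. Testing probe sets singly was chosen after seeing the data. Detection calls were not used, so signal over background is not known for the dim probe sets.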
